A study of Mus musculus with 16 samples.

Results

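The genes described here are 37 genes of the cornified envelope and of the barrier lipids of the epidermis, chosen by name from a table of 23235 rows of expression values. All 37 had a row of their own. The choice was made with the difference between Pc and Epi and the level in Epi already known, so these values are given as a description. The count of calls printed for that contrast supports nothing. RNA came from mouse embryonic skin at embryonic day 14.5, from which 8 cell fractions had been isolated by fluorescence-activated cell sorting, each in 2 libraries (16 in all). The labels call the fractions Pc, Epi, Mc, Sch, DCSch, DC, Fb and Neg, taken here as epidermal placode (Pc), the epidermis between (Epi), melanocytes (Mc), Schwann cells (Sch), dermal condensate with Schwann cells (DCSch), dermal condensate (DC), fibroblasts (Fb) and a negative fraction (Neg). These names rest on what is generally known of the study, not on its labels. The sources used here give no strain, genotype, transgene or sorting marker, and no label ties the replicates to separate litters, so the p-values measure the spread between these samples only. Values are FPKM, fragments scaled by transcript length and library, so levels of different genes can be compared only roughly. The RNA was amplified to cDNA, and some rows overlap other genes or may share reads with a paralog.

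The cornified envelope is a layer of protein, crosslinked by transglutaminases, that replaces the plasma membrane of keratinocytes as they die at the skin surface. Envoplakin and periplakin lay down its first scaffold beneath the membrane, and involucrin, small proline-rich proteins and loricrin are added later. Ceramides with very long acyl chains, made by Elovl4 and Cers3, glucosylated by Ugcg, loaded by the transporter Abca12 and oxidised by the lipoxygenases Alox12b and Aloxe3, form the lipid that seals it. In the mouse the epidermis is still stratifying at this stage, and the water barrier is acquired later in gestation.

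Several genes of the mature envelope were at or near 0 in Epi, while others were well measured there. Of the 37 genes, 28 reached 1 FPKM in at least 2 libraries, the minimum for entering the tests, and 27 of them did so without the Epi libraries. The exception was Sprr1a, which passed through Epi alone. The other 9 were Ivl (involucrin), Cnfn (cornifelin), Tgm5, Cdsn (corneodesmosin), Alox12b, Aloxe3, Smpd3 (a neutral sphingomyelinase), Spink5 (a protease inhibitor) and Hal (histidine ammonia-lyase). Of these 9, 6 stayed under 1 FPKM in every library. Alox12b, which acts on epidermal ceramides, was listed at 0 in both Epi and both Pc libraries. Ivl measured 0.528 and 0.459 FPKM in the 2 Epi libraries, and Lor (loricrin) 7.16 and 2.01. Tgm3 and Casp14, which also act late, were above 10 FPKM in both Epi libraries. Among 31 other stratum corneum genes listed from general knowledge, 15 were at 0 in every library, 11 of them late cornified envelope (Lce) genes.

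Of the 28 genes that entered the tests, 26 had their highest mean in Epi, 25 of these had the next highest in Pc, and 23 ran in the order Epi, Pc, Mc. Of the 5 departures from this order, Klf4 was highest in DC and Ugcg in Mc. Sprr1a had Mc next after Epi, and Lor and Rdh12 had DCSch and Sch in the place of Mc. Libraries summed to between 439201 and 606437 FPKM, and 11273 to 12137 rows reached 1 FPKM. Basal keratinocyte genes, which label both epithelial fractions, were as high in Pc as in Epi: their summed level in Pc was 100.3% of that in Epi. Summed fibroblast genes were 130% of the Epi level in Pc and Schwann cell genes 64.7%. Melanocyte genes were lower in Pc, at 40.3 and 38.1 summed FPKM against 177 and 263 in Epi, and macrophage and leukocyte genes summed to 8.14 and 6.06 against 13.7 and 23.3. The part of these cells in the values below was not tested. In sorted bulk samples, fewer cells of a type and less RNA per cell cannot be told apart.

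**Figure D1:**
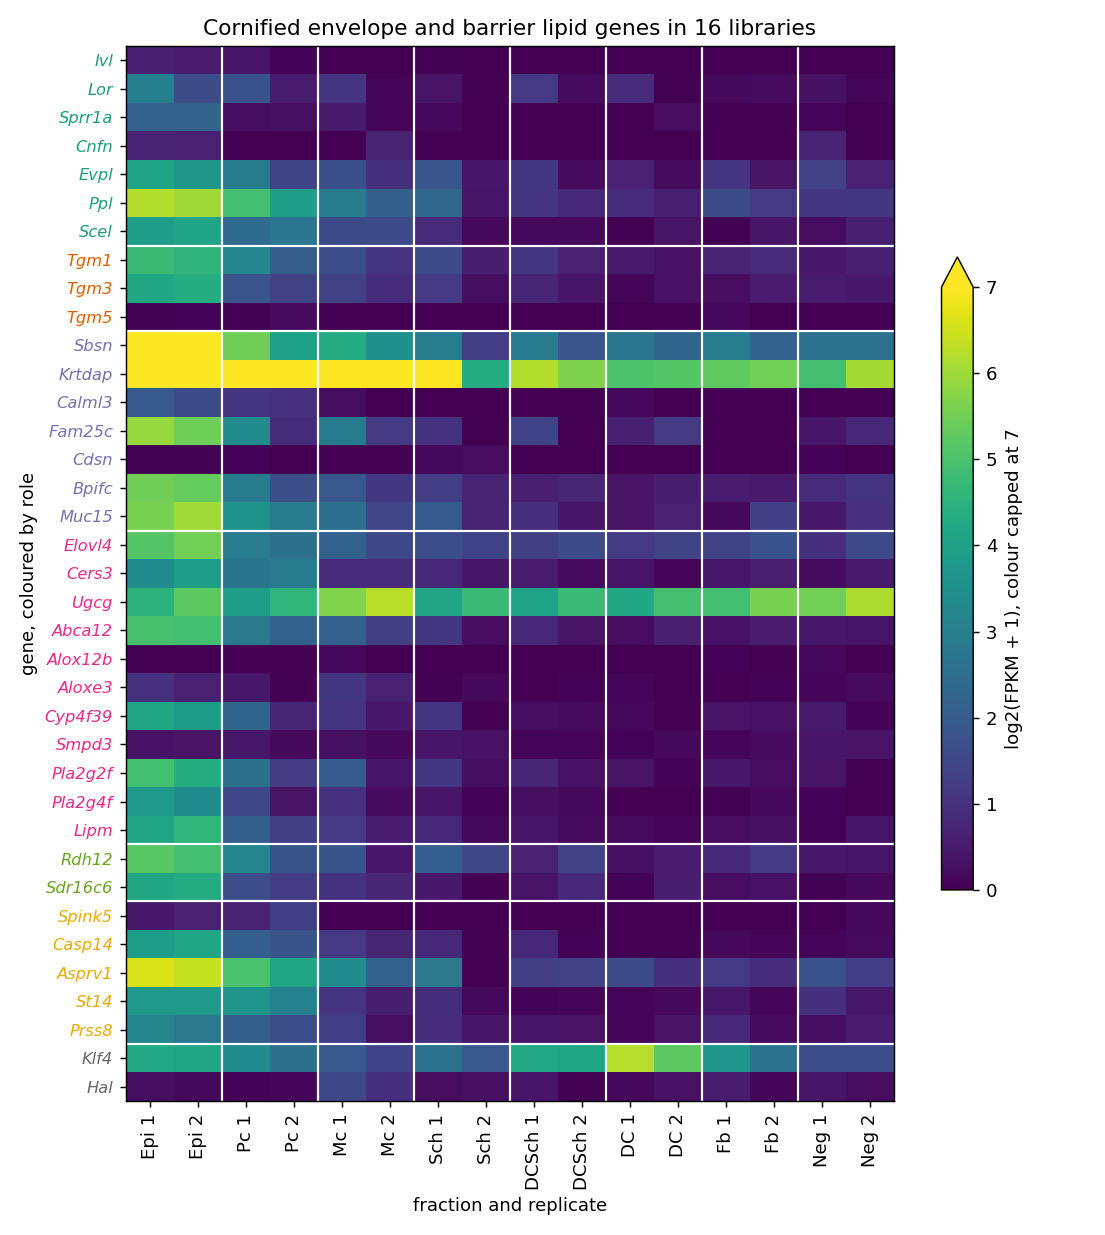
Heat map of log2(FPKM + 1) for the 37 genes (rows, grouped and coloured by role) in the 16 libraries (columns). Colour is capped at 7. Most rows are brightest in the 2 Epi libraries and next in Pc, while Ugcg is present in all 16 and Klf4 is brightest in DC, and Ivl, Tgm5, Cdsn and Alox12b are dark throughout.

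Genes of this group lie in several local clusters. In RefSeq's GRCm38.p6 annotation, Sbsn and Krtdap flank Dmkn (dermokine) on chromosome 7, with no other protein-coding gene between them. Their rows spanned chr7:30751471-30756134 and chr7:30787905-30791083 on mm10. Lor, Sprr1a and Ivl lie on chromosome 3 between 92080271 and 92573735, the epidermal differentiation complex, and Aloxe3 and Alox12b are direct neighbours on chromosome 11. The 250 bases before the start of 8 genes, taken where their rows start, are shown. RefSeq's span of Sbsn, Fam25c, Scel and Ugcg begins further upstream, so these windows lie wholly or partly within it. Krtdap, Sbsn, Fam25c, Bpifc and Scel were picked among the genes highest in Epi because their promoters hold the AP-1 letters, Abca12 as a gene highest in Epi whose promoter does not, and Klf4 and Ugcg as the tested genes highest elsewhere. They are RefSeq's sequence of GRCm38.p6, read 5′ to 3′ on the strand of the gene. Capitals mark the letters TGANTCA, the AP-1 motif, and TATAAA, the TATA box.
Krtdap promoter, chr7:30787655-30787904, plus strand: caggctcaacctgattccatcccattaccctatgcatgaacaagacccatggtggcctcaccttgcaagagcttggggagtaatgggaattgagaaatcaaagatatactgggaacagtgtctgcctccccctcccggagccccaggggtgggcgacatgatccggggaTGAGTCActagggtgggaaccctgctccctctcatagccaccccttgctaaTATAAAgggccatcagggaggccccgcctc
Sbsn promoter, chr7:30751221-30751470, plus strand: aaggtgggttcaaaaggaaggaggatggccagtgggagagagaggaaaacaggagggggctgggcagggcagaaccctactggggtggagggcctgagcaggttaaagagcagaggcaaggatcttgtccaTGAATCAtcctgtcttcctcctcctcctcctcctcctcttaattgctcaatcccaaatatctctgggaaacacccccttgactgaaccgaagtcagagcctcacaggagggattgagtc
Fam25c promoter, chr14:34355394-34355643, minus strand: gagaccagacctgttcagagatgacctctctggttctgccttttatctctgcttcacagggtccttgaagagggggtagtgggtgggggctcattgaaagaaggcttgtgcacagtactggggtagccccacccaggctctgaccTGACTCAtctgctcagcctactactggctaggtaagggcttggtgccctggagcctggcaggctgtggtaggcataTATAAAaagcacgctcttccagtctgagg
Bpifc promoter, chr10:86011861-86012110, minus strand: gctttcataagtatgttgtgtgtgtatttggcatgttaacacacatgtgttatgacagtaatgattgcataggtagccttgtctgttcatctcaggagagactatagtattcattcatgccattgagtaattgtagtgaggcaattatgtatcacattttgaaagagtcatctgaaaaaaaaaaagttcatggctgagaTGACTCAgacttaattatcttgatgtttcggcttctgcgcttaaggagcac
Scel promoter, chr14:103513091-103513340, plus strand: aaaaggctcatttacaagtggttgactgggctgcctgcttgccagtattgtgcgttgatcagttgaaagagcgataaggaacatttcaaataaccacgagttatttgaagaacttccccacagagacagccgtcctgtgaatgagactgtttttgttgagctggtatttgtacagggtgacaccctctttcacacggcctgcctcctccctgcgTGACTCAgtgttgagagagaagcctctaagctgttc
Abca12 promoter, chr1:71414911-71415160, minus strand: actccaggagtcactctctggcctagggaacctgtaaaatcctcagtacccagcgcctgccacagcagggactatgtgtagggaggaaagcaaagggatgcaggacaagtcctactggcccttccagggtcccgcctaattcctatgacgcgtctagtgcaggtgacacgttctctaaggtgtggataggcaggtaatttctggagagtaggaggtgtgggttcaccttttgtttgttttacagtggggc
Klf4 promoter, chr4:55532476-55532725, minus strand: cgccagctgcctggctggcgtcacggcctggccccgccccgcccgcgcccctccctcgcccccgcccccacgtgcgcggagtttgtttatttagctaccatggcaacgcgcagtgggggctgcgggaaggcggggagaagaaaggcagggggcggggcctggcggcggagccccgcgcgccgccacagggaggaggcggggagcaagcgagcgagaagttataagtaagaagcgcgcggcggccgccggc
Ugcg promoter, chr4:59189300-59189549, plus strand: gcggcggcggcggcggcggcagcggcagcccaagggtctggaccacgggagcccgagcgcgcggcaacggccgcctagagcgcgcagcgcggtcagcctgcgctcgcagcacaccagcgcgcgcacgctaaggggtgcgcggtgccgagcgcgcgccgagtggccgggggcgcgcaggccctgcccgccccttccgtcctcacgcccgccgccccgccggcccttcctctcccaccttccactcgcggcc
The AP-1 letters, searched on both strands, were in 9 of 30 promoters, which belong to the 28 genes of the group found in the table. They were in 6.75% of all 32851 promoters. Among the 20 tested genes highest in Epi with a promoter in the table, 7 held them and 13 did not, Tgm1, Tgm3, Elovl4, Asprv1 and Casp14 among the latter, so the 5 shown with the letters are not typical of the group. TATAAA on the gene's strand was in 6 of 30 and in 7.59% of all promoters. The letters AACNGGTT of Grainyhead-like factors, searched on both strands, were in none of the 30 and in 1.79% of all. In Krtdap the AP-1 letters began 81 bases before the start and the TATA letters 30 bases before it. The GC share was 56.4% in Krtdap and 36.8% in Bpifc, against 74% in Klf4 and 80.4% in Ugcg. A match describes letters in this window only.

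Between Pc and Epi, the contrast by which the genes were known, all 28 tested genes had a lower mean in Pc, and in 26 both Pc libraries were below both Epi libraries, as they were in 19% of all tested rows. The exceptions by overlap were Lor and Ugcg. In the fit over all rows (limma), 17 of the 28 passed an adjusted p under 0.05 with a log2 difference of at least 1, all lower in Pc. The 11 not called were Lor, Evpl, Ppl, Krtdap, Calml3, Cers3, Ugcg, Asprv1, St14, Prss8 and Klf4. Among all 14171 rows tested, 1.37% were called lower in Pc and 0.155% higher, 1.52% in all. Because the genes were picked on this contrast, nothing is read from the count of 17. It was 21 with the replicate number as a block, 15 without Pc replicate 1, 7 without Pc replicate 2, 9 without either Epi library, 2 with a pseudocount of 0.1 and 0 with only these 4 libraries fitted. Over the 25 genes with at least 5 FPKM in Epi, the mean in Pc ranged from 9.42% of that in Epi (Pla2g4f) to 74.6% (St14), with a median of 16.5%.

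The scaffold genes with at least 5 FPKM in Epi, 3 of 7, stood at 29.7% to 34.2% of their Epi level in Pc. Ppl, periplakin, measured 72.3 and 63.4 FPKM in Epi and 29.3 and 13.9 in Pc, 31.8% of the Epi mean. Evpl, envoplakin, with which periplakin pairs, measured 15.8 and 12.0 in Epi and 6.57 and 1.70 in Pc, 29.7%. Scel, sciellin, an envelope precursor, measured 13.8 and 15.9 in Epi and 4.48 and 5.68 in Pc, 34.2%. All 3 had both Pc libraries below both Epi libraries, and Scel alone of them was not higher in Pc replicate 1. Sprr1a, a small proline-rich protein that shares sequence with the paralog Sprr1b so that reads may be split between them, measured 3.62 and 3.70 in Epi and 0.196 and 0.236 in Pc.

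Crosslinking enzymes stood lower in Pc relative to Epi. Tgm1, the membrane-bound transglutaminase of keratinocytes, measured 26.2 and 22.3 FPKM in Epi and 8.52 and 3.16 in Pc, 24.1%. Tgm3, the transglutaminase of the later layers, measured 17.0 and 19.2 in Epi and 2.58 and 1.59 in Pc, 11.5%. Tgm5 did not pass 0.147 in any library, so among the transglutaminases of the group only Tgm1 and Tgm3 were at a level that could be compared.

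Genes of secreted and differentiation-linked proteins held the highest levels of the group. Krtdap, keratinocyte differentiation-associated protein, measured 4198 and 3984 FPKM in Epi and 951 and 544 in Pc, 18.3%. Sbsn, suprabasin, measured 197 and 192 in Epi and 44.1 and 14.8 in Pc, 15.2%. Dmkn, which lies between them, measured 621 and 478 in Epi and 179 and 102 in Pc, so the 3 neighbours had the same order of fractions at the top. Fam25c measured 59.1 and 43.2 in Epi and 9.44 and 0.887 in Pc, 10.1%, and its Pc libraries differed most of those named in this paragraph. Bpifc, of the family of lipid-binding BPI fold proteins, measured 43.7 and 39.8 in Epi and 6.40 and 2.22 in Pc, 10.3%. Muc15, a membrane mucin, measured 47.5 and 64.0 in Epi and 11 and 6.28 in Pc, 15.5%. The row of Muc15 spans Ano3 (chr2:110655201-110950244), but the row of Ano3 itself did not pass 0.0675 in these 4 libraries. Calml3, calmodulin-like 3, was low at 2.89 and 2.03 in Epi and 1.06 and 1.01 in Pc.

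Lipid genes ranged from 9.42% to 63.7% of their Epi level. The fatty acid elongase Elovl4 measured 34.1 and 44.7 FPKM in Epi and 6.70 and 5.03 in Pc, 14.9%. Its partner in the pathway, the ceramide synthase Cers3, measured 9.45 and 14.2 in Epi and 5.64 and 6.42 in Pc, 51.0%. Thus Cers3 stood far nearer its Epi level in Pc than Elovl4 did, though this difference was not tested. Abca12, the lamellar granule transporter, measured 30.1 and 28.4 in Epi and 6.14 and 3.5 in Pc, 16.5%. Cyp4f39, which hydroxylates very long fatty acids, measured 16.6 and 13 in Epi and 3.74 and 0.679 in Pc, 15.0%.

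The phospholipases and the lipase were among the lowest in Pc. Pla2g2f, a secreted phospholipase, measured 28.7 and 19.2 FPKM in Epi and 4.98 and 1.38 in Pc, 13.3%. Pla2g4f, a cytosolic one, measured 12.8 and 9.62 in Epi and 1.81 and 0.304 in Pc. Lipm, of the acid lipase family, measured 16.6 and 23.3 in Epi and 3.35 and 1.53 in Pc, 12.2%. The row of Lipm (chr19:34100943-34166041) overlaps Ankrd22, whose own row measured 13.3 and 15.7 in Epi and 5.75 and 9.18 in Pc. The short-chain dehydrogenase genes followed the phospholipases. Rdh12, a retinol dehydrogenase, measured 35.2 and 29.1 in Epi and 8.04 and 2.51 in Pc, 16.4%, and Sdr16c6 measured 16.9 and 19.0 in Epi and 2.18 and 1.34 in Pc, 9.81%.

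Among the proteases the members parted. St14, matriptase, measured 12.8 and 12.7 FPKM in Epi and 11.6 and 7.49 in Pc, 74.6%, the highest share of the 25. Prss8, prostasin, which acts in a cascade with matriptase, measured 8.21 and 6.03 in Epi and 3.31 and 2.15 in Pc, 38.3%. Its row overlaps Kat8, whose own row measured 20.3 and 17.0 in Epi, 18.8 and 17.0 in Pc and 9.31 and 10.8 in Fb. The part of Kat8 reads in the row of Prss8 was not tested. The aspartic protease Asprv1, which cleaves profilaggrin, measured 96.9 and 82.4 in Epi and 30.8 and 16.4 in Pc, 26.3%. Casp14, a caspase of cornification, measured 14 and 16.4 in Epi and 3.30 and 2.50 in Pc, 19.1%. Spink5, the inhibitor, was 1 of 2 genes of the whole group with the highest mean in Pc (0.626 and 1.48, against 0.361 and 0.554 in Epi), at levels under the minimum for testing. The other was Tgm5.

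**Figure D2:**
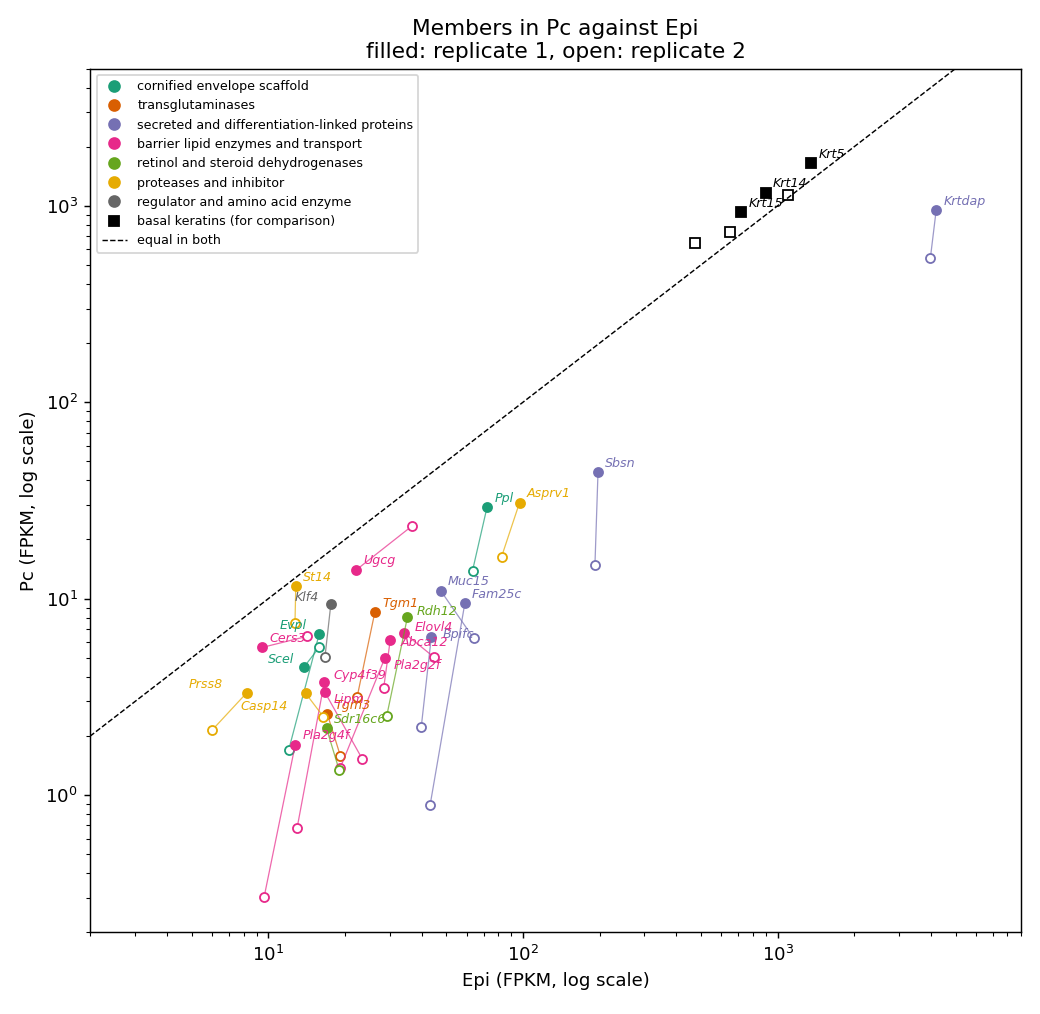
Pc against Epi, FPKM on log axes, for the 25 genes with an Epi mean of at least 5 FPKM. Filled points are replicate 1, open points replicate 2, joined by a line, with squares for the basal keratins Krt5, Krt14 and Krt15 and a dashed line where both are equal. The 25 genes lie below the dashed line, St14 nearest to it, while the basal keratins lie above it.

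The Pc libraries differed in these genes. Of the 28, 24 were higher in Pc replicate 1 than in replicate 2, with a median log2(FPKM + 1) difference of 0.782, whereas 49.5% of all tested rows were higher in replicate 1. Sbsn was 2.97 times as high in replicate 1, Tgm1 2.70 times, Ppl 2.11 times and Krtdap 1.75 times. The suprabasal keratins Krt1 and Krt10 were 2.45 and 2.90 times as high there, and the basal keratins Krt5, Krt14 and Krt15 1.43 to 1.59 times. In Epi, 18 of the 28 were higher in replicate 1, against 45.6% of all tested rows, with a median difference of 0.0794. The Epi genes higher in replicate 2 included Elovl4, Cers3, Lipm and Muc15.

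Against Fb, Pc was higher in 20 of the 28 and lower in none. The choice of genes did not use this contrast, but the Pc libraries are common to it and to the contrast with Epi. The group was named for the epidermis and chosen with earlier results known. A higher level in Pc than in fibroblasts was therefore to be foreseen, and the count is given as a description. Of all rows, 8.26% were called higher in Pc and 13.7% lower, 21.9% in all. The median log2 difference was 1.53 over the 28 and 0.00801 over all rows. Krtdap measured 951 and 544 FPKM in Pc and 38.5 and 44.4 in Fb, a log2 difference of 4.09 (SE 0.74, limma adjusted p = 0.0011). Asprv1 measured 30.8 and 16.4 against 1.29 and 0.853, a log2 difference of 3.51 (SE 0.70, limma adjusted p = 0.00232). St14 measured 11.6 and 7.49 against 0.367 and 0.0657, a log2 difference of 3.10 (SE 0.30, limma adjusted p = 8.84e-06). In each of these the Pc libraries lay wholly above the Fb libraries.

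Ppl followed with 29.3 and 13.9 FPKM in Pc against 2.07 and 1.24 in Fb, a log2 difference of 3.02 (SE 0.53, limma adjusted p = 0.000855). Muc15 measured 11 and 6.28 against 0.135 and 1.45 (2.48, SE 0.51, limma adjusted p = 0.00273). Scel measured 4.48 and 5.68 against 0.0230 and 0.352 (2.36, SE 0.26, limma adjusted p = 2.73e-05). Cers3 (2.28), Sbsn (2.16), Abca12 (2.05), Tgm1 (1.88), Casp14 (1.83), Bpifc (1.76), Pla2g2f, Rdh12, Lipm, Prss8, Tgm3, Elovl4, Sdr16c6 and Calml3 made up the 20, and Calml3 was listed at 0 in both Fb libraries. The 8 not called were Lor, Sprr1a, Evpl, Fam25c, Cyp4f39, Pla2g4f, Ugcg and Klf4. Evpl and Cyp4f39 had log2 differences of 1.47 and 1.14 (limma adjusted p = 0.0737 and 0.0755), and Fam25c, listed at 0 in both Fb libraries, had an adjusted p of 0.0518 in limma. With a replicate block these 3 were called too, 23 in all. Without Pc replicate 1 there were 13, the 7 lost being Elovl4, Pla2g2f, Prss8, Rdh12, Sbsn, Sdr16c6 and Tgm3. With both Epi libraries left out of the fit and of the minimum level, 19 of 27 were called, the loss being Rdh12. Of these 19, 12 reached the minimum without Pc too. The other 7 (Calml3, Cers3, Lipm, Sdr16c6, Casp14, St14, Prss8) then reached it only through Pc, the fraction in which they were called higher. This setting is therefore no check on them. In the main fit these 7 likewise reached the minimum only with the help of the Epi or Pc libraries, so their calls there are a description.

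Outside the epithelium the genes of the group were present at a few percent of their Epi level, and keratins were present at a like share in the same libraries. For the 23 genes with at least 5 FPKM in Epi, Ugcg and Klf4 left aside, the median share of the Epi mean was 8.90% in Mc replicate 1, 3.88% in Mc replicate 2, 5.60% in Sch replicate 1 and 0.72% in Sch replicate 2. Basal keratins stood at 11.6% to 12.3%, 5.86% to 6.19%, 5.54% to 6.04% and 0.637% to 1.01% of their Epi mean in the same 4 libraries. In the 8 libraries of DCSch, DC, Fb and Neg the medians lay between 0.787% and 1.79%, and the basal keratins between 0.619% and 2.68%. Krtdap, the most abundant, measured 334 and 128 FPKM in Mc and 137 and 18.7 in Sch, and 29.4 to 72.1 in the other 8 libraries. Krt5, a basal keratin, measured 142 and 76.1 in Mc, 73.5 and 10.7 in Sch and 9.64 to 25.1 in those 8. The part of keratinocyte RNA in these levels was not tested.

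Replicates parted in Mc and Sch as they had in Pc. Higher values in replicate 1 were found for 26 of the 28 in Mc and for 26 in Sch, against 50.1% and 51.4% of all tested rows. In DCSch the number was 18 of 28, against 49.3% of all tested rows. In DC, Fb and Neg it was 12, 11 and 12, against 45.6%, 47.1% and 47.6% of all tested rows. Asprv1 measured 5.81 FPKM in Sch replicate 1 and was listed at 0 in replicate 2.

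**Figure D3:**
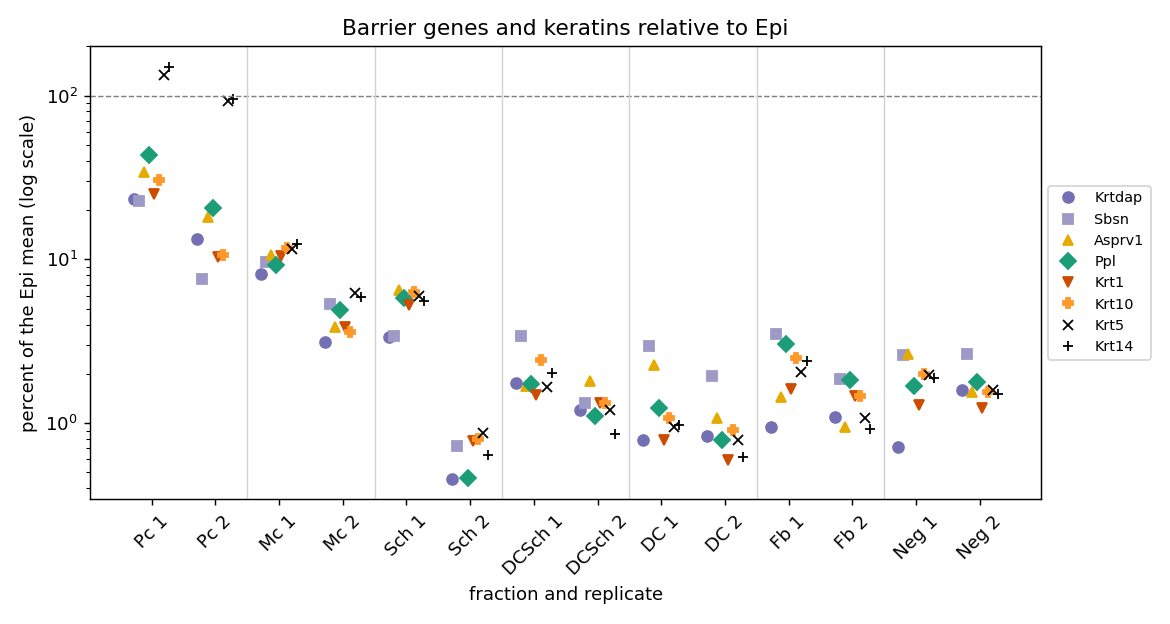
Level in each of the 14 libraries outside Epi as a percent of the mean of the 2 Epi libraries (log scale) for 4 genes of the group (Krtdap, Sbsn, Asprv1, Ppl), 2 suprabasal keratins (Krt1, Krt10) and 2 basal keratins (Krt5, Krt14). In Pc the basal keratins sit at 92.4% or above and the other 6 lower. In the other 12 libraries all 8 sit at 12.3% or less, with a spread between genes. In DC replicate 1, for example, Sbsn is at 2.97% and Krtdap at 0.787%. Asprv1 in Sch replicate 2, listed at 0, has no point.

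Between Mc and Sch, fractions of neural crest origin, 2 of the 28 were called, both higher in Mc, while 4.53% of all rows were called higher in Mc and 7.31% lower, 11.8% in all. Ugcg, glucosylceramide synthase, measured 49.8 and 75.4 FPKM in Mc and 16.7 and 26.6 in Sch, a log2 difference of 1.5 (SE 0.42, limma adjusted p = 0.0304). Scel measured 1.95 and 2.08 in Mc and 0.830 and 0.103 in Sch, a log2 difference of 1.08 (SE 0.26, limma adjusted p = 0.0142). With the replicate block 5 were called, Ppl, Sbsn and Abca12 joining, and Ugcg had an adjusted p of 1.27e-07 in limma. Neither call held in every alternative. Ugcg lost it when libraries were rescaled to 1 total, without Mc replicate 1 or 2 and without Sch replicate 1. Scel lost it without Mc replicate 1 or 2, without Sch replicate 2, with a pseudocount of 0.1 and with only these 4 libraries fitted. Without Sch replicate 1, the library with the higher keratin share, 6 were called: Scel, Abca12, Asprv1, Krtdap, Ppl and Sbsn. No call remained without Mc replicate 1, and Abca12 alone was called without Mc replicate 2.

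Ugcg did not follow the keratinocyte pattern. Its mean was highest in Mc, then Neg (45 and 69 FPKM), Fb (29.1 and 46.9), Epi (22.2 and 36.6), DC (17.3 and 29.5), Sch, DCSch (15.8 and 25.5) and Pc (14 and 23.4). Replicate 2 was above replicate 1 in all 8 fractions, by 1.51 to 1.70 times, so that the values of neighbours in this order overlapped, but within each replicate number the order was the same. The enzyme makes glucosylceramide in many cell types, and its RNA was above 10 FPKM in all 16 libraries.

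Klf4, a zinc finger transcription factor required for the skin barrier, was highest in the dermal condensate. It measured 74.0 and 36.8 FPKM in DC, 17.7 and 16.7 in DCSch, 17.6 and 16.7 in Epi, 11.9 and 5.16 in Fb, 9.35 and 5.02 in Pc, 5.11 and 2.73 in Sch, 2.73 and 1.65 in Mc and 2.23 and 2.15 in Neg. Both DC libraries were above the other 14, and Epi and DCSch overlapped, as did Fb and Pc, Pc and Sch, and Mc and Neg. Against Fb, DC was higher by a log2 difference of 2.58 (SE 0.42, limma adjusted p = 0.000852), and the call held in all 14 alternatives. Klf4 was the only gene of the group called between DC and Fb, where 6.13% of all rows were higher in DC and 9.2% lower, 15.3% in all. It was likewise the only one called between Neg and Fb, lower in Neg by a log2 difference of -1.48 (SE 0.42, limma adjusted p = 0.0257), while 7.71% of all rows were lower in Neg and 7.77% higher, 15.5% in all. That call was lost without either Neg library, without Fb replicate 1 and with only the 4 libraries fitted. The remaining 27 tested genes had no call in either comparison with Fb. Ugcg, at 29.1 and 46.9 FPKM in Fb and 45 and 69 in Neg, was above its Epi mean in the mean of both fractions.

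Some genes of low level were also highest outside the epidermis. Hal, which makes urocanic acid from histidine, measured 1.85 and 0.915 FPKM in Mc and did not pass 0.435 in any other library. Aloxe3 measured 1.19 and 0.551 in Mc and 0.998 and 0.555 in Epi, ranges that overlap, and did not pass 0.355 elsewhere. Both were under the minimum for testing.

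**Figure D4:**
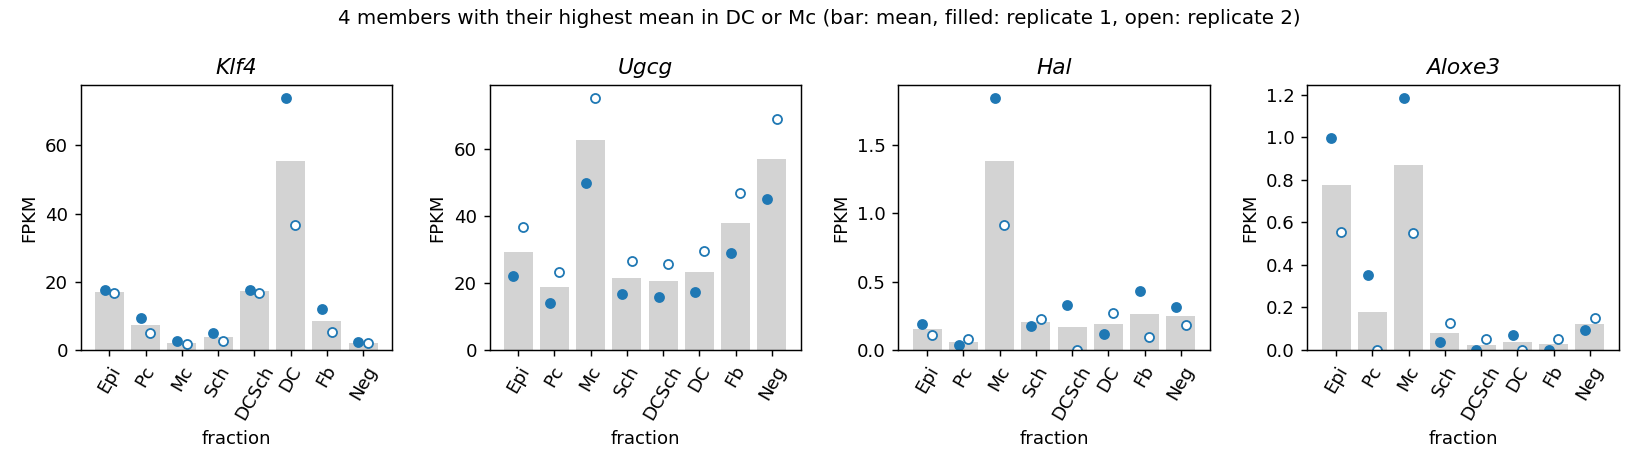
FPKM of Klf4, Ugcg, Hal and Aloxe3 in the 8 fractions. Grey bars are means of 2 libraries, filled points replicate 1 and open points replicate 2, and the vertical scale differs between panels. Klf4 is highest in DC, the other 3 in Mc, and Ugcg is higher in replicate 2 of every fraction.

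Other genes of the same pathways, listed from general knowledge with earlier results of these data known, were counted beside the 37. Because earlier results were known, the counts of these lists between Pc and Epi are given as a description. Of 25 other barrier lipid genes tested, 9 fell in Pc against Epi and 1 rose, with a median log2 difference of -0.77 against 0.0034 over all rows. Of all rows, 1.37% were called lower in Pc and 0.155% higher. Alox12, a 12-lipoxygenase, measured 22.2 and 23.2 FPKM in Epi and 6.62 and 3.06 in Pc. Dgat2, of triglyceride synthesis, measured 19.4 and 18.7 against 5.62 and 2.40, and Sult2b1, the cholesterol sulfotransferase, 12.5 and 10.8 against 2.65 and 2.06. Sgpp1, a sphingosine phosphate phosphatase, measured 45.4 and 65.8 against 15.8 and 14.3. The ceramide synthase gene Cers4 was the one higher in Pc, at 3.72 and 1.93 against 0.634 and 0.260 in Epi, opposite in sign to Cers3. These pairs of libraries did not overlap. Both Pc libraries were below both Epi libraries in 19% of all tested rows, and the genes named here as lower in Pc were picked by the size of that difference.

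Against Epi, 1.37% of all rows were called lower in Pc and 0.155% higher. Of 6 other stratum corneum genes tested, 1 fell in Pc, Sprr1b (3.48 and 1.94 FPKM in Epi, 0.0881 and 0 in Pc). The more abundant Dmkn (log2 difference -2.0) and Cstb, a cysteine protease inhibitor (-1.13), missed the call. Of 15 proteases and inhibitors, 5 fell, among them the kallikrein Klk11 (11.4 and 8.76 against 3.09 and 0.753), Serpinb3a and Tmprss13, and none rose, with a median of -0.73. Neither matriptase (St14) nor its inhibitors were called. Spint1 measured 31.7 and 25.0 in Epi and 20.1 and 14.4 in Pc, and Spint2 121 and 73.1 against 101 and 65.9. Of 22 regulators of differentiation, 3 fell (Grhl1, Ovol1, Hopx) and none rose, with a median of -0.65. Grhl1, a Grainyhead-like factor, measured 30.7 and 33.7 in Epi and 10.1 and 4.87 in Pc, and Ovol1, a zinc finger repressor, 10.3 and 10.9 against 3.69 and 1.70. Its relative Grhl3, needed for the barrier, measured 88.3 and 84.8 against 36.1 and 18.5 and was not called, nor was the receptor Notch3.

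In the same comparison, where 1.37% of all rows were called lower in Pc and 0.155% higher, none of 12 basal keratinocyte genes was called. Their median log2 difference was 0.29, with means lower in Pc for Cdh1 and Perp. Of 12 suprabasal genes, 3 fell in Pc (Dsg1a, Dsg1b, Dsc1), with a median of -1.71. Krt1 measured 855 and 659 FPKM in Epi and 191 and 78 in Pc, and Krt10 859 and 594 against 223 and 76.7, neither called. Of 9 periderm genes tested, 2 fell, one of them Lypd3 (45.8 and 35.8 against 13.2 and 3.80), with a median of -0.89. Against Fb, where 8.26% of all rows were higher in Pc and 13.7% lower, Pc was higher in all 12 basal genes, 9 of 12 suprabasal genes and 8 of 9 periderm genes. It was lower in 1 suprabasal gene, Ptgs1, a cyclooxygenase.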

How the data were processed

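FPKM values were taken from 1 table that the authors deposited, with a column for each of 16 libraries. TopHat2 2.0.3, Bowtie2, Cufflinks 2.1.1 and the build mm10 are named in the submitters' processing notes, without their roles, and scaling between libraries is not stated. Per the labels' protocols, 6 ng of RNA was amplified to cDNA and 100 ng of cDNA went into a library. Coordinates of rows come from the file and are 1-based. No counts are given and the depth is not stated. Low values gave no usable step: the most frequent ratio between replicates was shared by at most 20 of 1598 rows.

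Values were moved to log2(FPKM + 1), so differences of low genes are understated. A row needed 1 FPKM or more in 2 or more libraries, which 14171 rows met. The model was limma 3.58.1 (R 4.3.3), with 1 mean per fraction over 16 libraries, a trended and robust spread and Benjamini-Hochberg adjustment. The spread of a gene was thus pooled over all fractions, including those where it was at or near 0. Calml3, for example, was listed at 0 in 10 of the 16 libraries. For such genes the SE reflects in part libraries with hardly any signal. Rows were called at an adjusted p under 0.05 with a log2 difference of 1 or more in either direction. The fit was tested on data simulated with a log2 difference of 2 in 200 rows. The 200 rows were drawn among those with a mean log2(FPKM + 1) above 2 in the second fraction of the comparison. Of these 75.5% to 84% were called, depending on the comparison, along with 5 to 13 unchanged rows. That share does not describe genes lower in the second fraction, such as Scel and St14, with means of 0.187 and 0.216 FPKM in Fb. The simulated noise was independent between libraries, so it is no check on the correlation given next. Deviations of same-numbered libraries correlated across genes in all 28 pairs of fractions (0.148 to 0.656), so the replicate numbers were read as pairing the libraries, and a fit with a replicate block was run beside the main one. The genes, lists and tests were chosen with earlier results of these data known. Named with values were genes reaching 10 FPKM in a fraction, the largest called differences (up to 6 per direction) and up to 4 genes per list. Some further genes were named after their values were seen. Alternatives covered pseudocount, filter, scaling, samples, spread, block and left-out replicates. The fit without the Epi libraries was added after seeing the data.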

Additional observations from a re-analysis of the deposited data

How the results depend on the processing

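With a replicate block, the count of called genes of the group went from 2 to 5 between Mc and Sch, and that of all rows from 216 to 368 between Pc and Epi. In the other comparisons the block kept both counts within 1.5 times, and no call of the group was lost. Between Pc and Epi, 2 of the group were called with a pseudocount of 0.1, 9 with 0.5 and 0 with only the 4 libraries fitted, where 1 row in all was called (31 rows with a pseudocount of 0.1). Leaving out 1 library gave 7 (without Pc replicate 2; 9 without either Epi library) to 15 of the group and 67 to 184 rows. Between Pc and Fb leaving out 1 library gave 13 to 24, and 10 of the 20 genes were called in all 14 alternatives. Between Mc and Sch the count was 1 with a pseudocount of 0.1, with only the 4 libraries and with libraries rescaled to 1 total, and 0 to 6 with 1 library left out. Between Neg and Fb it was 0 with only the 4 libraries and 0 to 1 with 1 left out. With only the 4 libraries, 1079 rows were called between DC and Fb and 1311 between Neg and Fb. The fit to 4 libraries has fewer samples to estimate the spread, and takes it from the compared fractions alone. The cause of the changed counts was not tested for this or any other setting. Rescaling to 1 total moved the median log2 difference of all rows to -0.15 for Mc against Sch and -0.20 for Neg against Fb, and the share of Neg against Fb calls that were higher in Neg from 50.2% to 37.4%. For the 24 calls of single genes in the 4 tested comparisons, no alternative reversed the direction. The unknown depth limits the reading of values listed at 0.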
